A study of Homo sapiens with 6 samples.

Results

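The genes that encode the subunits of oxidative phosphorylation were described in A172 cells, an established human glioblastoma line, with and without added RBFOX1, a neuronal and muscle RNA-binding protein. The set held the protein-coding genes whose symbols start with NDUFA, NDUFB, NDUFC, NDUFS, NDUFV, UQCR, COX4I, COX5, COX6, COX7, COX8 or ATP5, without the NDUFAF assembly factors, together with SDHA to SDHD, CYC1 and the 13 protein-coding genes of the mitochondrial genome. That rule used names only and found 104 of the 58051 genes in the count files, 91 of them nuclear and 13 mitochondrial. The study compared a stable A172 line carrying a lentiviral GFP expression construct (3 libraries) with a stable line carrying a lentiviral RBFOX1 construct (3 libraries), grown in the same medium. Lentivirus for both groups was made in HEK293T cells, a human embryonic kidney line used for packaging, and transduced with polybrene, so the controls share the transduction. The methods call the libraries of each group biological replicates, and the sources used here do not say whether a line is clonal. RNA was depleted of ribosomal RNA and sequenced in a strand-specific way, so the values are RNA levels and not protein, respiration or ATP.

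Oxidative phosphorylation moves electrons from NADH (complex I) and succinate (complex II) through complex III and cytochrome c to oxygen at complex IV, and the proton gradient built on the way drives ATP synthase (complex V). Its subunits come from separate genomes. The mitochondrial genome is transcribed as long precursor RNAs from each strand, which are then cut into single transcripts, and it encodes core subunits of complexes I, III, IV and V. The nuclear genome encodes all other subunits, including the whole of complex II, and these proteins are imported into mitochondria. Tumour cells, glioblastoma cells among them, are known for high glycolysis, and most still respire.

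Counts on genes ranged from 12128602 to 23249221 in the GFP libraries and from 7433414 to 14915861 in the RBFOX1 libraries. For RBFOX1 itself the GFP libraries held 4, 0 and 1 counts and the RBFOX1 libraries 10276, 16467 and 21451, as labelled. GFP replicate 1 stood apart from the other GFP libraries: over genes, the chi-square of its counts per degree of freedom was 8.08 and 8.23 against GFP replicates 2 and 3, which differed from each other by 1.60. Pairs of RBFOX1 libraries had 1.88 to 2.80. This measure also grows with depth, and GFP replicate 1 was the deepest library. The counts of GFP replicate 1 on the mitochondrial ribosomal RNA genes were 0.0247% of the total, against 0.0907% to 0.147% in the other 5 libraries. Of the glioblastoma line markers listed, VIM and CD44 were abundant in all libraries while GFAP had 4 counts or fewer and S100B 2 or fewer in each. Of the 9 markers of that list tested 3 rose and 5 fell (median log2 fold change -0.50). CHI3L1 and SOX2 rose by the most, and SOX9 and CD44 fell by the most. Rising and falling are defined below, where 23.7% of all genes tested rose and 22.9% fell. The summed level of the list was 5689 to 5767 CPM in GFP and 3811 to 3864 CPM in RBFOX1 libraries. The part of these markers in the values below was not tested. Markers of other cell types (epithelial, blood, endothelial, liver) summed to between 2.28 and 3.15 CPM in GFP and between 10.1 and 10.6 CPM in RBFOX1 libraries, with HBB and ALB at 0 throughout. Of the 5 of these tested 3 rose, CDH1 and PECAM1 by the most, and 0 fell (median log2 fold change 1.82). Here CPM are counts scaled to a common library size (counts per 1e6) after TMM scaling, which sets libraries level on genes that change little.

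Members moved little in size, more often down than up. A gene is said to have risen or fallen where the edgeR quasi-likelihood test gave a Benjamini-Hochberg adjusted p under 0.05 over all 20536 genes with at least 10 counts in sum. Of the 104 members 98 were tested, of which 7 rose, 31 fell and 60 were not past the threshold. Over all genes tested 23.7% rose and 22.9% fell, 46.6% in all, while 7.14% of the members tested rose and 31.6% fell. Among well-expressed genes calls were commoner: of 9641 protein-coding genes with a mean of at least 10 CPM, 31.8% rose and 34.8% fell, while of the 78 nuclear members at that level 5 rose and 21 fell (6.41% and 26.9%). No test was made of the difference in shares. With the total count as library size, in place of TMM, 13 members rose and 24 fell. The median log2 fold change (RBFOX1 over GFP) was -0.067 over the 98 members and 0.0051 over all genes tested, and only 6 called members changed by 0.5 or more on that scale. At a mean of at least 10 CPM the median was -0.054 over nuclear members and -0.018 over protein-coding genes. By their 6 values, 7 of the 98 members had every RBFOX1 library above every GFP library and 27 had every one below, against 26.9% and 26.5% of all genes tested. By genome, 9 of 13 mitochondrial members fell and none rose (median -0.20), and by the same test none of the 13 had an unadjusted p under 0.05 with a rise. DESeq2 also called no rise among them. Of the 85 nuclear members tested, 22 fell and 7 rose (median -0.046). The sign of the nuclear median is not settled, since it was 0.0034 without GFP replicate 1 and 0.0048 with the total count as library size.

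**Figure D1:**
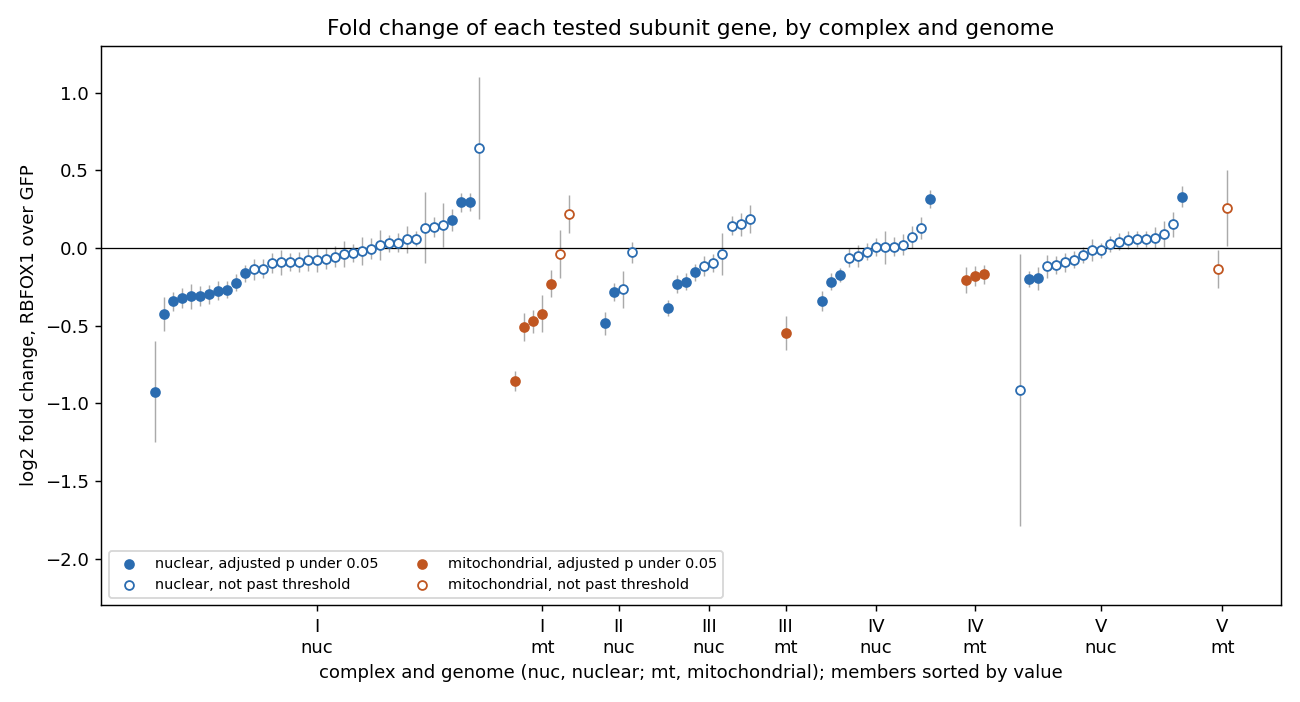
Log2 fold change (RBFOX1 over GFP, vertical axis) of tested subunit genes, with bars of 1 standard error, sorted within each complex and genome; filled points passed an adjusted p of 0.05 and open points did not. COX6B2 and NDUFA4L2, which have under 12 counts in every library, are left out, and the mitochondrial genes of complexes I, III and IV hold the filled orange points, all below 0.

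The 6 members left out of the test had almost no counts. NDUFC2-KCTD14, COX4I2, COX6A2, COX7A1 and COX8C had 0 counts in all libraries, and ATP5MF-PTCD1 had at most 2. NDUFC2-KCTD14 and ATP5MF-PTCD1 are readthrough genes that share exons with a neighbour, so reads could be left unassigned. A count of 0 allows up to 3 counts, which is 0.131 to 0.392 CPM in these libraries.

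The 13 mitochondrial genes did not move as a block: log2 fold changes ran from -0.86 to 0.26. Together they took 0.773%, 0.955% and 0.921% of counts in GFP replicates 1 to 3 and 0.880%, 0.758% and 0.766% in RBFOX1 replicates 1 to 3, so the groups overlapped. The nuclear members took 0.764% to 0.815% in GFP and 0.745% to 0.793% in RBFOX1 libraries. GFP replicate 1 was the lowest GFP library for all 13 mitochondrial genes, while it was the highest GFP library for 59 of the 85 nuclear members tested. Without it, 11 of the 13 mitochondrial genes fell (median -0.33), and 9 nuclear members rose and 22 fell. Over all genes 9307 were called in that fit, against 9580 in the test reported, where 23.7% rose and 22.9% fell. The part of its low mitochondrial ribosomal RNA share in these values was not tested.

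MT-ND5 (ENSG00000198786), a core proton-pumping subunit of complex I, showed the largest fall of the 13. It had 75.8, 85.0 and 83.8 CPM in GFP replicates 1 to 3 and 43.6, 48.2 and 42.7 CPM in RBFOX1 replicates 1 to 3. All RBFOX1 libraries lay far below all GFP libraries, and the log2 fold change was -0.86 ± 0.067 (SE, n = 3 per group, edgeR adjusted p = 1.69e-09). MT-ND2, another core membrane subunit, had 38.7, 51.5 and 46.9 CPM in the GFP and 31.4, 33.2 and 30.8 CPM in the RBFOX1 libraries, again without overlap (log2 fold change -0.51 ± 0.090, edgeR adjusted p = 9.12e-05). MT-ND4 was also separate, at 198, 262 and 249.7 against 179, 166 and 165 CPM (log2 fold change -0.47 ± 0.076, edgeR adjusted p = 3.16e-05). These 3 genes were the only mitochondrial members whose groups did not overlap in CPM, where 26.5% of all genes tested had every RBFOX1 library below every GFP library.

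MT-CYB, the cytochrome b of complex III that carries its b-type hemes, fell by 0.55 on the log2 scale. Its values were 194, 295 and 277 CPM in GFP replicates 1 to 3 and 200.2, 159.5 and 164 CPM in RBFOX1 replicates 1 to 3 (SE 0.11, edgeR adjusted p = 3.13e-04). Here GFP replicate 1 lay just under RBFOX1 replicate 1, and the other libraries were separate by group. MT-ND1 fell too, from a mean of 58.4 ± 11.8 (SD, n = 3) to 43.5 ± 5.97 CPM, with GFP replicate 1 inside the RBFOX1 range (log2 fold change -0.42 ± 0.12, edgeR adjusted p = 0.00578). Its call was kept in 11 of 13 alternative analyses and lost with DESeq2 and without RBFOX1 replicate 3. MT-ND4L was lower by a smaller amount (-0.23 ± 0.088, edgeR adjusted p = 0.0371), a call kept in 5 of its 13. MT-ND4L and MT-ND4 are translated from the same transcript, and their genes overlap by a few bases. MT-ND5, MT-ND2, MT-ND4 and MT-CYB kept their calls in all 13.

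The 3 cytochrome c oxidase genes, which build the catalytic core of complex IV, were the most abundant members by length, with GFP means of 4541 CPM per kb for MT-CO3, 2247 for MT-CO2 and 1825 for MT-CO1. Together they made up 87.3% to 89.2% of the counts on the 13 genes in every library. MT-CO1 stood at 2516, 2998 and 2927 CPM in the GFP and 2720.2, 2334 and 2395 CPM in the RBFOX1 libraries. Its ranges overlapped, and the small fall (-0.18 ± 0.065, edgeR adjusted p = 0.0278) was kept in 6 of 13 alternatives. For MT-CO2 the change was -0.20 ± 0.083 (edgeR adjusted p = 0.049, 3 of 13 alternatives) and for MT-CO3 -0.17 ± 0.060 (edgeR adjusted p = 0.0261, 7 of 13). GFP replicate 1 was below RBFOX1 replicate 1 for each of these 3 genes.

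The remaining 4 mitochondrial genes were not past the threshold. MT-ATP6 and MT-ATP8, which share a transcript and encode the membrane part of ATP synthase, had log2 fold changes of -0.14 ± 0.12 and 0.26 ± 0.25. Without GFP replicate 1 the value of MT-ATP8 turned to -0.15, still not called, and MT-ATP6 was called lower at -0.33, as it was with no filter (-0.14). The 207 bases of MT-ATP8 overlap MT-ATP6 over 22.2% of their length, and it had only 87 to 131 counts per library. MT-ND6, the light-strand gene, stood at 11.0, 19.0 and 17.1 CPM in GFP and 12.5, 15.7 and 15.4 CPM in RBFOX1 libraries (-0.040 ± 0.15). Without GFP replicate 1 MT-ND6 was called lower, at -0.28. MT-ND3, a small core subunit of complex I, had 140.4, 228 and 227 CPM in GFP and 247, 239 and 204 CPM in RBFOX1 libraries, a difference of 0.22 ± 0.12 (edgeR adjusted p = 0.154) that shrank to 0.014 without GFP replicate 1. MT-ND3 was called higher in 3 of 13 alternatives: with no filter, without GFP replicate 2 (0.33) and without GFP replicate 3 (0.34).

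**Figure D2:**
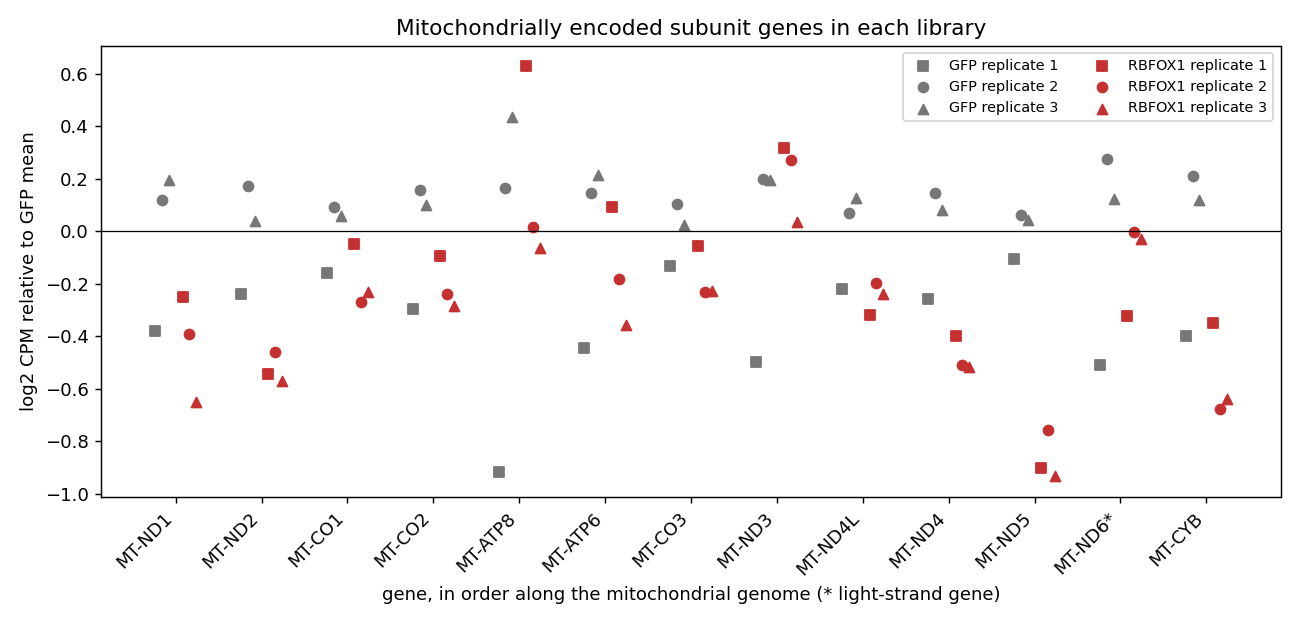
CPM of each of the 13 mitochondrial protein-coding genes in each library, as log2 of the ratio to the GFP mean (vertical axis), in order along the mitochondrial genome; grey symbols are GFP and red symbols RBFOX1 libraries. The red symbols of MT-ND2, MT-ND4 and MT-ND5 lie below all grey ones, and the grey squares of GFP replicate 1 are the lowest grey symbol at every gene.

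Expressed as a share of the 13 genes within the same library, a scale chosen after the data were seen that removes differences in the mitochondrial total, the changes were uneven. MT-ND5 made up 0.964%, 0.872% and 0.894% of that total in GFP replicates 1 to 3 and 0.511%, 0.640% and 0.568% in RBFOX1 replicates 1 to 3. On this scale 4 genes (MT-ND2, MT-ND4, MT-ND5 and MT-CYB) had all RBFOX1 libraries below all GFP libraries, and MT-ND3 had all of them above, at 1.79%, 2.34% and 2.42% against 2.90%, 3.18% and 2.71%. In CPM, a different scale, 26.5% of all genes tested had every RBFOX1 library below every GFP library and 26.9% had every one above. MT-CYB, whose groups overlapped in CPM, went from 2.46%, 3.03% and 2.95% to 2.34%, 2.12% and 2.18%. The shares of MT-CO1 and MT-CO2 overlapped between groups, with means of 31.3% ± 0.635 and 31.6% ± 0.517 (SD, n = 3) for MT-CO1. Shares of a fixed total move together, so a gene's higher share here does not show a higher level.

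The nuclear genome carries old copies of mitochondrial DNA, which can take or cancel reads. In GRCh38, 27.9% of the 100-base windows of MT-CO1 (GENCODE 44, chrM:5904-7445) and 26.1% of those of MT-ND2 (chrM:4470-5511) had an identical copy in a nuclear chromosome. A stretch at chr1:629081-634924 covers both genes whole at 98.7% and 98.4% identity. The shares were 11.9% for MT-ATP6, 11.0% for MT-ND1, 4.67% for MT-CO3 and 2.39% for MT-CO2. No identical window was found for the other 7 genes, among them MT-ND5 (chrM:12337-14148), MT-ND4 (chrM:10760-12137), MT-ND3 and MT-CYB (chrM:14747-15887). Reads of 100 bases that align equally well in more than one place get a low mapping quality and were not counted, and reads of low quality made up 16.8% to 27.0% of the total in the 6 libraries. The reads were paired, so a mate outside an identical window could still place a pair, which the window shares leave out. Annotated pseudogenes of the mitochondrial genes took 0.0041% to 0.0061% of the counts on genes. Among nuclear members 50 of 91 have at least 1 annotated pseudogene of the same name, where reads may likewise be lost or split.

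Among nuclear members, 16 of the 85 tested had the RBFOX binding motif TGCATG (sense strand, with U for T in the RNA) in the annotated 3' UTR of their main transcript, against 36.5% of 14071 protein-coding genes tested, or 18.8% of members. Their UTRs are short, with a median of 195 bases against 1298, and the density of the motif was 0.305 against 0.322 per kb. The motif was found in 4 of the 22 that fell (NDUFA5, NDUFB5, SDHA and UQCRB), in 2 of the 7 that rose (NDUFA6 and COX6B2) and in 10 of the 56 that were not past the threshold. The sites of 4 of these called members are shown because RBFOX1 binds these letters, and those of COX6B2, which had 8 counts or fewer in each library, and UQCRB are not shown here. Sites have the motif in capitals and 10 bases on each side, in GRCh38. A match is a description of sequence and was not tested for binding.
SDHA, chr5:256467-256492, plus strand: taatagctcaTGCATGtgtccatgtc
NDUFA6, chr22:42085946-42085971, minus strand: ctcagagcctTGCATGtcagtaaaca
NDUFA5, chr7:123540495-123540520, minus strand: gaagtgtgttTGCATGggtactttca
NDUFA5, chr7:123538228-123538253, minus strand: ttattcatacTGCATGtctaaggagg
NDUFB5, chr3:179627452-179627477, plus strand: aatgatgtaaTGCATGtcttgactga

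Promoters of respiratory genes are known for sites of nuclear respiratory factor 1 and of ETS family factors. In RefSeq promoters (GRCh38.p14, 250 bases before to 50 after the gene start) matched for 71 of the 91 nuclear members, the exact palindrome GCGCATGCGC was present in 4 (5.63%), against 1.75% of 15843 protein-coding promoters. Of the 68 members tested 5.88% held it, against 2.19% of the 11323 promoters of protein-coding genes tested. The letters CCGGAAG, searched on both strands as an ETS core, were present in 20 of the 71 (28.2%) against 14.2%, or 29.4% against 17.9% among genes tested, in 7 of 19 members that fell, 0 of 6 that rose and 13 of 43 not past the threshold. The 4 palindromes are shown in capitals with 10 bases on each side. SDHD and NDUFB4 fell, and ATP5F1C and NDUFA8 were not past the threshold.
SDHD, chr11:112086753-112086782, plus strand: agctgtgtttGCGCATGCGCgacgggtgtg
NDUFB4, chr3:120596167-120596196, plus strand: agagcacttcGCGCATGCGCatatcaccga
ATP5F1C, chr10:7788145-7788174, plus strand: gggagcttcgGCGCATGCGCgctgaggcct
NDUFA8, chr9:122159764-122159793, minus strand: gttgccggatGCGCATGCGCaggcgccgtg

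Complex I, which takes electrons from NADH, had 37 of its 38 nuclear members tested, of which 11 fell and 3 rose (29.7% and 8.11%, against 22.9% and 23.7% of all genes tested). Of the well-expressed protein-coding genes 34.8% fell and 31.8% rose. None of the 7 nuclear core subunits, which hold the flavin and the iron-sulfur clusters, was called, and their log2 fold changes ran from -0.056 (NDUFS8) to 0.14 (NDUFS3), with a median of 0.035. Among them NDUFV2 had only 16 to 53 counts per library. Another annotated gene on the same strand overlaps 28.4% of its exon bases, so its level is uncertain. Of the 7, 1 (NDUFS3) had an unadjusted p under 0.05 by edgeR, and NDUFS3 was called higher in 4 of 14 alternatives. All 14 calls were in the 30 accessory subunits, whose median was -0.092. NDUFS1, a core subunit with iron-sulfur clusters, stood at 275, 245 and 255 CPM in GFP and 247, 267 and 277 CPM in RBFOX1 libraries, with the groups interleaved. By contrast 5 of the 7 core subunits from the mitochondrial genome fell, as described.

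Of the 11 NDUFB genes 6 fell and 2 rose (54.5% and 18.2%, against 22.9% and 23.7% of all genes tested and 34.8% and 31.8% of the well-expressed protein-coding genes). NDUFB subunits belong to the membrane arm of the complex. NDUFB10, an accessory subunit of that arm, had 116, 109.5 and 106 CPM in GFP replicates 1 to 3 and 82.2, 91.7 and 94.3 CPM in RBFOX1 replicates 1 to 3. Every RBFOX1 library was below every GFP library (log2 fold change -0.30 ± 0.060, edgeR adjusted p = 3.16e-04). NDUFB7 (-0.31 ± 0.079), NDUFB9 (-0.28 ± 0.061), NDUFB5 (-0.27 ± 0.055) and NDUFB4 (-0.22 ± 0.056) also fell without overlap. NDUFB8 had fewer counts, 79 to 304 per library, and fell from 13.2 ± 1.48 to 9.87 ± 0.638 CPM (log2 fold change -0.42 ± 0.11, edgeR adjusted p = 0.00343), and 33.8% of its exon bases overlap another annotated gene on the same strand.

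Outside the NDUFB group, NDUFS6 (ENSG00000145494, chr5:1801407-1816048), an accessory subunit that binds zinc and joins late in assembly, had 60.2, 65.6 and 63.7 CPM in the GFP and 49.8, 49.7 and 49.6 CPM in the RBFOX1 libraries. The RBFOX1 values were nearly the same in all replicates and below every GFP value (log2 fold change -0.34 ± 0.061, edgeR adjusted p = 8.98e-05). NDUFS4, whose loss causes Leigh syndrome, fell from 76.3 ± 4.50 to 61.2 ± 4.44 CPM (SD, n = 3, log2 fold change -0.32 ± 0.066, edgeR adjusted p = 3.76e-04). NDUFA5, with both motif sites shown above, stood at 69.8, 66.1 and 68.0 CPM in GFP and 50.3, 58.7 and 55.0 CPM in RBFOX1 libraries (log2 fold change -0.31 ± 0.064). NDUFA3 fell by 0.16, a call kept in 9 of 14 alternatives. NDUFA13 had the largest fall of any nuclear member (-0.93 ± 0.32, edgeR adjusted p = 0.0242), where the GFP libraries held 26, 23 and 20 counts and the RBFOX1 libraries 5, 12 and 10, kept in 10 of 14 alternatives. NDUFA13 shares 21.0% of its exon bases with YJEFN3 and another gene on the same strand, and reads there are counted for neither, so its level is uncertain. In all 28 members share exon bases with another gene on the same strand, and reads that fit more than one gene made up 8.89% to 9.35% of the total in GFP and 6.89% to 7.94% in RBFOX1 libraries. Their part in these values was not tested.

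The 3 accessory members that rose were NDUFB11, NDUFA6 and NDUFB2. NDUFB11 (ENSG00000147123, chrX:47142071-47145466), a subunit of the membrane arm, had 55.4, 51.6 and 52.8 CPM in GFP replicates 1 to 3 and 66.6, 67.0 and 63.5 CPM in RBFOX1 replicates 1 to 3. Every RBFOX1 library was above every GFP library, with a log2 fold change of 0.30 ± 0.060 (edgeR adjusted p = 3.43e-04). NDUFA6, which carries the motif site shown above, rose from 46.0, 44.7 and 45.5 CPM to 53.0, 56.3 and 57.2 CPM, also without overlap (log2 fold change 0.29 ± 0.062, edgeR adjusted p = 5.39e-04). NDUFB2 rose by less (0.18 ± 0.072, edgeR adjusted p = 0.0449), its groups overlapped, and the call was kept in 7 of 14 alternatives.

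**Figure D3:**
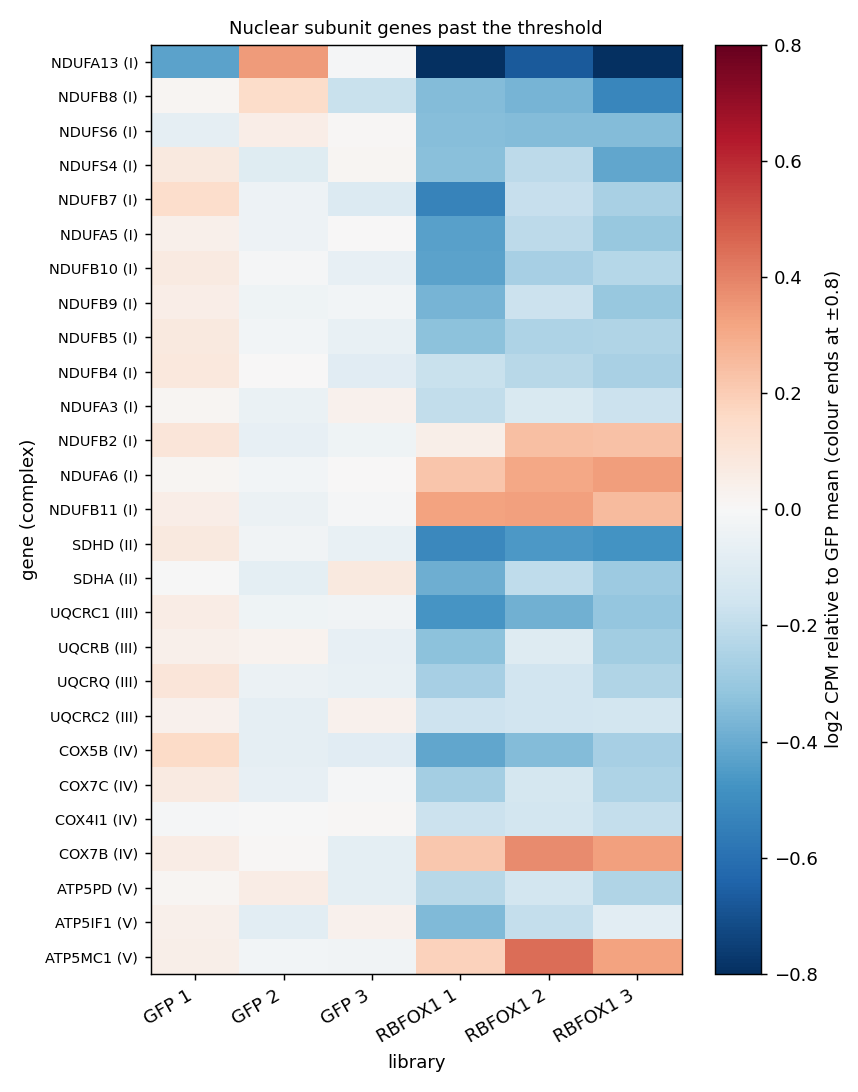
Nuclear subunit genes past the threshold (rows, with the complex in parentheses) in each of the 6 libraries (columns), coloured by log2 of the ratio of CPM to the GFP mean. The RBFOX1 columns are blue for the 22 genes that fell and red for 5 that rose, and COX6B2 and NDUFA4L2 are left out for their low counts.

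Complex II, succinate dehydrogenase, is wholly nuclear and also a step of the tricarboxylic acid cycle. SDHD (ENSG00000204370, chr11:112086824-112120016), a membrane anchor subunit, fell the most of the 4. It had 35.5, 33.0 and 32.3 CPM in GFP replicates 1 to 3 and 23.5, 24.5 and 24.1 CPM in RBFOX1 replicates 1 to 3. The groups were well separate, with a log2 fold change of -0.49 ± 0.074 (edgeR adjusted p = 1.56e-05). SDHA, the flavoprotein that oxidizes succinate, went from 139, 132 and 147 CPM to 106, 121 and 114 CPM, again without overlap (-0.29 ± 0.058, edgeR adjusted p = 3.47e-04). SDHC, the other anchor, had 64.2, 104 and 98.4 CPM in GFP and 73.6, 76.1 and 69.7 CPM in RBFOX1 libraries. GFP replicate 1 alone lay below all RBFOX1 libraries there, and the gene was not called (-0.27 ± 0.12, edgeR adjusted p = 0.0724), and without that library it was (-0.47, edgeR adjusted p = 6.40e-08). SDHB, the iron-sulfur subunit, had 69.7, 60.1 and 65.8 CPM in GFP and 58.8, 67.3 and 65.6 CPM in RBFOX1 libraries, with the groups interleaved (-0.027 ± 0.068).

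Complex III passes electrons from ubiquinol to cytochrome c. UQCRC1 (ENSG00000010256, chr3:48599002-48610976), a core subunit related to the mitochondrial processing peptidase, had 299, 279 and 281 CPM in GFP replicates 1 to 3 and 206, 219 and 231 CPM in RBFOX1 replicates 1 to 3. The GFP libraries all lay higher, by a wide gap (log2 fold change -0.39 ± 0.052, edgeR adjusted p = 3.15e-06). Its partner UQCRC2 fell less (-0.16 ± 0.054, edgeR adjusted p = 0.0203), with a call kept in 8 of 14 alternatives. The small subunits UQCRB and UQCRQ fell by 0.23 and 0.22. The nuclear catalytic subunits were not past the threshold: CYC1, the cytochrome c1, had 117, 100.3 and 100.3 CPM in GFP and 114, 116 and 121 CPM in RBFOX1 libraries (0.14 ± 0.062, edgeR adjusted p = 0.0671), and UQCRFS1, the Rieske protein, changed by -0.10 ± 0.058. Without GFP replicate 1 CYC1 was called higher (0.23, edgeR adjusted p = 2.92e-04). UQCRH, the hinge protein, changed by -0.12 ± 0.065 and its near-copy UQCRHL by -0.041 ± 0.13, and reads may be split between them.

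Complex IV, cytochrome c oxidase, adds supernumerary nuclear subunits to its mitochondrial core, and several come as a common form and a form of one tissue. COX5B (ENSG00000135940, chr2:97646062-97648383), a zinc-binding subunit, had 161, 138 and 136 CPM in GFP replicates 1 to 3 and 108, 114 and 120.4 CPM in RBFOX1 replicates 1 to 3, with no overlap (log2 fold change -0.34 ± 0.064, edgeR adjusted p = 1.54e-04). COX7C fell by 0.22 and COX4I1, the common form of the largest nuclear subunit, by 0.17. COX4I1 stood at 279, 281 and 282 CPM in GFP and 249, 253 and 246 CPM in RBFOX1 libraries. In the other direction, COX7B (ENSG00000131174, chrX:77899440-77907376), a small subunit, had 96.4, 93.0 and 87.6 CPM in GFP and 107, 120.1 and 116 CPM in RBFOX1 libraries. All RBFOX1 libraries were higher (log2 fold change 0.31 ± 0.057, edgeR adjusted p = 1.35e-04). The other common forms COX6A1, COX6B1, COX6C, COX7A2, COX8A and the COX7A2 paralog COX7A2L had log2 fold changes between -0.064 and 0.070, COX5A had 0.13 ± 0.072, and none of these 7 was called.

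Tissue forms other than COX7B2 were at or close to 0. COX4I2, the lung form, COX6A2 and COX7A1, the heart and muscle forms, and COX8C, a testis form, had no counts in any library. COX6B2, a testis form, was counted 1, 0 and 1 times in the GFP libraries and 1, 1 and 8 times in the RBFOX1 libraries. NDUFA4L2, known for its induction in low oxygen, had 3, 2 and 1 against 3, 3 and 11 counts. Both passed the threshold as higher (edgeR adjusted p = 0.0411 and 0.0226), but GFP libraries held 3 counts or fewer, so no fold is given. The calls rest mostly on RBFOX1 replicate 3. Without that library NDUFA4L2 was not called and COX6B2 had too few counts to be tested. Both also lost their calls with DESeq2, with a replicate block and without GFP replicate 1. NDUFA4, the common paralog of NDUFA4L2, stood at 225, 195 and 201 CPM in GFP and 197, 207 and 207 CPM in RBFOX1 libraries, with the groups overlapping. COX7B2, usually a testis form, was present at 17.1, 13.3 and 16.3 CPM in GFP and 16.6, 17.1 and 14.1 CPM in RBFOX1 libraries, with the groups interleaved (0.0036 ± 0.11). Per length, COX7B2 stood at 19.1 and COX7B at 30.5 CPM per kb in GFP. Among 7 tested skeletal and cardiac muscle markers 6 rose, MYH7 and TNNI1 by the most, and TNNT1 fell. Over all genes tested 23.7% rose and 22.9% fell. The summed level of the muscle list was 225.7 to 257.8 CPM in GFP and 211.9 to 226.3 CPM in RBFOX1 libraries, with CKMT2 and MYOD1 at 0. Among 5 tested neuron markers 4 rose, STMN2 and NEFL by the most, and SYT1 fell. The sum of the neuron list went from between 369.1 and 400.7 to between 1294 and 1438 CPM, most of it NEFL. In bulk RNA, fewer cells of a type and less RNA per cell cannot be told apart, and the part of these markers in the subunit values was not tested.

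**Figure D4:**
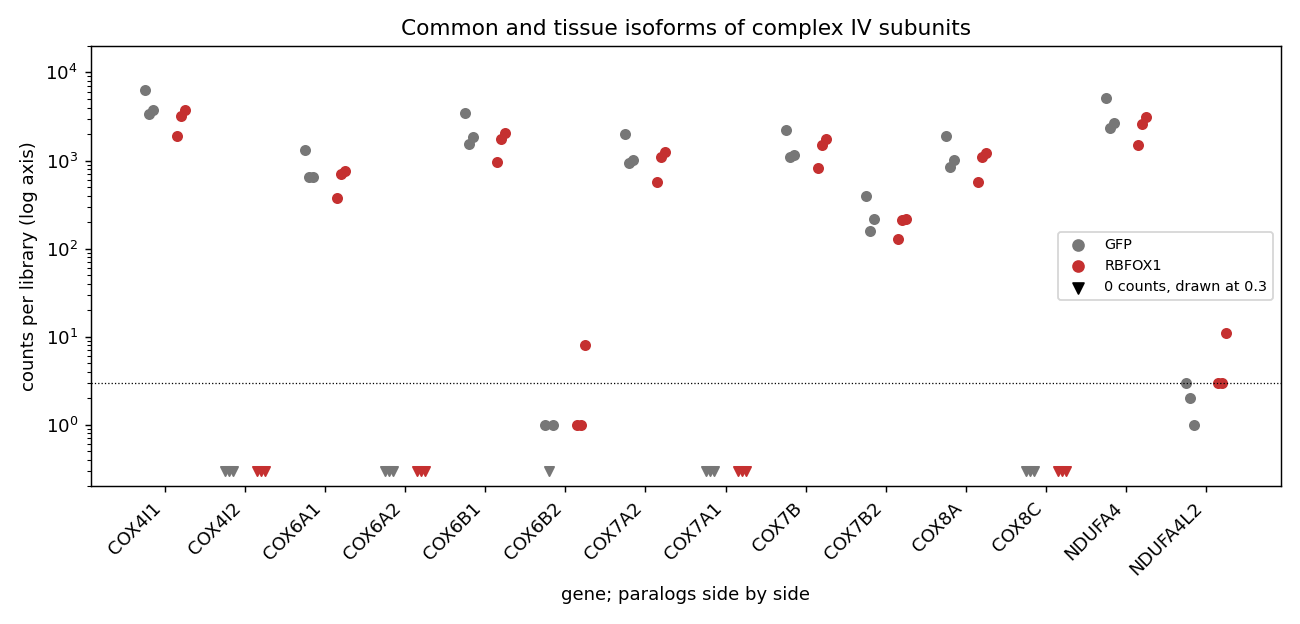
Counts per library (log axis, not scaled for depth) of complex IV subunit genes that come as a common form and a tissue form, side by side; grey points are GFP and red points RBFOX1 libraries, triangles are 0 counts and the dotted line marks 3 counts. COX4I2, COX6A2, COX7A1 and COX8C are at 0 in all 6 libraries, and COX6B2 and NDUFA4L2 exceed 3 counts in RBFOX1 replicate 3 only.

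Of the 19 nuclear members tested of complex V, ATP synthase, 1 rose and 2 fell (5.26% and 10.5%, against 23.7% and 22.9% of all genes tested). Of the well-expressed protein-coding genes 31.8% rose and 34.8% fell. None of the 5 subunits of the catalytic F1 head was called. ATP5F1B, the catalytic beta subunit and the nuclear member with the most counts, had 586, 585 and 568 CPM in GFP and 545, 599 and 576 CPM in RBFOX1 libraries, with the groups interleaved (-0.014 ± 0.048). ATP5F1C, the gamma subunit, whose muscle exon is a known target of Fox-1 splicing, had 209, 194 and 193 CPM in GFP and 202, 217 and 203 CPM in RBFOX1 libraries (0.057 ± 0.051, edgeR adjusted p = 0.399), and gene counts do not show which exons were used. The head's log2 fold changes ran from -0.014 to 0.090. Of the 3 genes that encode the same mature c-ring protein, ATP5MC1 rose while ATP5MC2 and ATP5MC3 were not past the threshold. ATP5MC1 (ENSG00000159199, chr17:48892765-48895871) had 55.3, 52.7 and 52.5 CPM in GFP replicates 1 to 3 and 60.9, 73.1 and 67.0 CPM in RBFOX1 replicates 1 to 3, without overlap (log2 fold change 0.33 ± 0.067, edgeR adjusted p = 3.80e-04). ATP5MC2 changed by 0.055 ± 0.051 and ATP5MC3 by -0.076 ± 0.054, and per length ATP5MC3 (32.6 CPM per kb), ATP5MC2 (31.0) and ATP5MC1 (20.5) were in that order in GFP. ATP5PD, a subunit of the peripheral stalk, had 129, 133 and 121 CPM in GFP and 109, 115 and 108 CPM in RBFOX1 libraries, all lower (-0.20 ± 0.054, edgeR adjusted p = 0.00439). ATP5IF1, the inhibitor that blocks reverse running of the synthase, fell by 0.20 from 51.1 ± 2.44 to 44.3 ± 4.10 CPM (SD, n = 3, edgeR adjusted p = 0.0301), kept in 8 of 14 alternatives and lost without GFP replicate 1.

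Genes that build or serve these complexes moved in both directions. Their counts stand beside the 23.7% that rose and the 22.9% that fell over all genes tested, 46.6% in all, and no list was tested against these shares. Of 16 complex I assembly factors tested 6 fell and 1 rose, with NDUFAF8 (-0.54 ± 0.081) and COA1 (-0.45 ± 0.058) the lowest and FOXRED1 the one that rose (0.51 ± 0.098). Of 35 assembly factors of complexes II to V 9 rose and 7 fell, among them SDHAF1 (0.51), which serves complex II, and COA7 (0.47), which rose, and COX11 (-0.36) and COA6 (-0.32), copper factors for complex IV, which fell. In mitochondrial transcription and replication (16 tested) 2 rose and 4 fell. TWNK, the replicative helicase, rose from 16.4, 21.3 and 19.1 CPM in GFP to 35.9, 34.6 and 35.5 CPM in RBFOX1 libraries (0.92 ± 0.088, edgeR adjusted p = 3.26e-08), and TFB1M, which methylates the small mitochondrial ribosomal RNA, fell from 25.2, 23.1 and 23.3 CPM to 11.1, 13.6 and 13.5 CPM (-0.89 ± 0.093, edgeR adjusted p = 1.03e-07). TFB2M, which opens the promoter, rose (0.50 ± 0.072) and TOP1MT, a topoisomerase, fell (-0.54 ± 0.099).

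Of 18 tested genes of mitochondrial RNA processing and stability 6 rose and 5 fell, where 46.6% of all genes tested were called. LRPPRC, which stabilizes mitochondrial messenger RNAs, had 193, 199 and 199 CPM in GFP and 273, 273 and 281 CPM in RBFOX1 libraries, all higher (0.49 ± 0.046, edgeR adjusted p = 2.67e-08). HSD17B10, part of the enzyme that cuts the precursor at transfer RNAs, rose (0.31 ± 0.062), while PRORP, the nuclease of that enzyme (-0.40 ± 0.14), and REXO2, which degrades short RNAs (-0.51 ± 0.070), fell. Among 11 tested nuclear regulators of respiratory genes 4 rose and 3 fell. PPARGC1A, the coactivator of mitochondrial biogenesis, fell (-0.95 ± 0.15), as did PPARA (-1.04 ± 0.078), and NRF1, whose palindrome was searched above, rose (0.45 ± 0.11), as did MYC (1.01 ± 0.076). In the tricarboxylic acid cycle (13 tested) 4 rose and 2 fell, with FH (0.31) and CS (0.27) the highest. Of 12 genes for cytochrome c and ubiquinone, the carriers between the complexes, 6 rose and 2 fell (median 0.23), where over all genes tested 23.7% rose and 22.9% fell. COQ8A rose by the most (1.19 ± 0.078), COQ2 and CYCS, the cytochrome c gene, also rose (0.58 and 0.57), and PDSS2 (-0.65) and COQ5 (-0.20) fell.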

How the data were processed

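RNA-seq was measured in 6 libraries of A172 cells (3 GFP, 3 RBFOX1). The authors aligned reads to GRCh38 with HISAT2 and deposited HTSeq counts per gene (intersection-strict mode, reverse strand) under Ensembl 87 annotation. The deposited count files hold no normalization. A deposited DESeq2 table with the authors' fold changes and p-values was not used. The 5 classes of unassigned reads were kept out of library sizes. Symbols and coordinates came from GENCODE 44, which matched 98.1% of identifiers, so lengths may differ from those used in counting.

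Genes with at least 10 counts in sum were tested with edgeR 4.0.16 (R 4.3.3) by TMM scaling and the quasi-likelihood test on condition, two-sided, with Benjamini-Hochberg adjustment over 20536 genes. CPM are counts per 1e6 of the TMM-scaled library. The SE of a log2 fold change was taken as its absolute value over the square root of the F statistic of that test. It is a value of the fit and not a spread between libraries. The common biological coefficient of variation between libraries of a group was 0.054, and for genes with few counts counting error comes on top of it. No replicate block was fitted in the test reported. Alternatives were other scalings, filters, DESeq2 1.42.0, limma-voom 3.58.1, a replicate block, a fold minimum, the mitochondrial genes taken out and each library left out. Of these, 14 apply to a nuclear gene and 13 to a mitochondrial gene, with the fold minimum set apart. Nuclear copies of mitochondrial genes were found with blastn 2.17.0. Promoters came from RefSeq.

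The genes named were all mitochondrial members, the 3 largest rises and falls past the threshold in each complex, tissue forms and paralogs, complex II, ATP5F1C, ATP5IF1, and the 2 largest rises and falls in each other list, except that the falls in the tricarboxylic acid cycle are not reported here by gene. Other names (NDUFS1, NDUFS3, NDUFS4, NDUFS8, CYC1 and further NDUFA, NDUFB, UQCR, COX and ATP5 members) were chosen after their values were seen. The members and the lists were chosen with earlier results of these data known, so no list was tested as a set.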

Additional observations from a re-analysis of the deposited data

How the results depend on the processing

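The counts of called members depended on scaling, filter and library more than their direction did. Over all genes, 9580 passed the threshold in the test reported and 5390 when a log2 fold change of at least 0.5 was also required, and leaving out 1 library gave 8326 to 9307. Members that rose were 7 in the test reported, all nuclear. They were 13 with the total count as library size, 4 with the replicate block, 4 with DESeq2 and 2 at the fold minimum (COX6B2 and NDUFA4L2). Leaving out 1 library gave 4 to 11, in all and for nuclear members alone, with 11 without RBFOX1 replicate 1 and 4 without RBFOX1 replicate 3. Members that fell were 31, and 4 at the fold minimum, with 23 to 33 when a library was left out. Nuclear members that fell were 22, and 1 at the fold minimum (18 to 22 with a library left out). Mitochondrial members that fell were 9, and 5 with the total count as library size and 3 at the fold minimum. Leaving out a library gave 4 (without RBFOX1 replicate 3), 5 (without GFP replicate 2, GFP replicate 3 or RBFOX1 replicate 2) and up to 11 (without GFP replicate 1). Mitochondrial members that rose were 0, and 1 without a filter and 0 to 1 with a library left out. The causes were not tested. The median over members stayed below 0 in every alternative (-0.102 to -0.0221 with a library left out). Of the 38 called members 26 kept their call in every alternative run, namely 18 nuclear and 4 mitochondrial genes that fell and 4 that rose. For the 47 members named by rule, 642 alternative values were computed, of which 334 kept a call, 238 were not called as in the test reported, 60 lost a call and 10 gained one. Of the 238, 30 had the other sign, and no called value changed direction. The shared replicate numbers did not pair the libraries: same-numbered libraries had correlations of deviations from the group means of -0.033, 0.016 and -0.00055, and 1 of 6 libraries correlated best with its own number. The replicate block moved no other count of members by over 1.5 times. Counts were fewest, among the called members, for NDUFA13, COX6B2 and NDUFA4L2 (26 or fewer in every library), where a difference under the counting error is not detectable.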
